A study of Mus musculus with 24 samples.

Results

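Synaptic vesicles fuse with the plasma membrane through SNARE proteins, and the 64 genes described here encode those SNAREs, the proteins that bind them and the proteins of the vesicle itself. They were taken by gene name, as every gene on the array that is a numbered synaptotagmin, syntaxin, *Vamp*, synapsin, *Sv2*, complexin, syntaxin binding protein or *Rab3* gene, or 1 of 5 *Snap* genes. The 64 were part of 23787 genes named on the array, and each was read from the brightest of its probes, 101 probes in all. 34 genes had 1 probe and 30 had more.

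The hippocampus was taken from 48 male Swiss-Webster mice. The mice, given as 12 weeks old, were by the study's methods housed singly for some weeks before the treatment. They drank corticosterone (100 µg/ml, dissolved with 0.45% hydroxypropyl-β-cyclodextrin) or the same vehicle without hormone overnight, through the dark phase, and were killed in the first, the fifth or the ninth hour of the light phase that followed. The 6 groups, control and corticosterone-treated at each hour, held 8 animals each. By the study's methods the controls were brothers of the treated mice and each group drew on several litters, but the labels do not give an animal's litter, so the fit has no term for it and its errors take the animals of a group as independent. RNA of 1 control animal (Cy3 dye) and 1 corticosterone-treated animal (Cy5 dye) shared each of 24 arrays, which lay on 3 slides, with 2 first-hour, 2 fifth-hour and 4 ninth-hour arrays on slide 1 and 3, 3 and 2 on each of the others. The dyes were never swapped, so that dye and treatment cannot be told apart within an hour.

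On each array, 57.9 to 64.2% of spots stood well above background in Cy3 and 61.0 to 70.4% in Cy5, and the median intensity was 82.0 to 96.0 in Cy3 and 120.5 to 160.5 in Cy5. The mean intensity of the 64 members, after normalization and over both dyes, ran from 15.9 (*Stx19*) to 48802 (*Syn2*), with a median of 2399.7, against 74.5 over all 56605 probes. 60 members had a mean intensity of 50 or more, the level under which the authors called a signal very low. 58 stood well above background on every array in both dyes. *Cplx4*, *Stx11*, *Syt15*, *Syt2* and *Syt8* did so on some arrays, and *Stx19* on none, so that no fold change is given for it. Intensity depends on the probe, and levels are compared between animals and not between genes.

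In a nerve terminal, the vesicle SNARE synaptobrevin (*Vamp1*, *Vamp2*) zips up with syntaxin (*Stx1a*) and *Snap25* on the plasma membrane, and this pulls both membranes together. Syntaxin binding proteins and complexins hold the complex ready, and synaptotagmins on the vesicle sense calcium and trigger fusion. Synapsins and *Rab3* proteins tether and guide the vesicles, SV2 proteins sit in the vesicle membrane, and other SNAREs work at endosomes, lysosomes, autophagosomes and the Golgi apparatus of every cell. Corticosterone, the main glucocorticoid of mice, acts on hippocampal neurons through glucocorticoid and mineralocorticoid receptors.

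The tissue label was checked against lists of markers. All 11 markers of hippocampal neurons stood well above background on every array, and their summed intensity was 169105 to 204445 over all animals, with *Camk2a* the brightest. The median of this sum was 190777 in control and 191699 in corticosterone-treated animals at the first hour, 200109 and 198423 at the fifth and 183665 and 191549.7 at the ninth. None of the 11 passed the test at the first hour, where limma's unadjusted p was under 0.05 for 1 of them, and *Gad2* (log2 fold change 0.21 and 0.17) and *Rbfox3* (0.14 and 0.11) were higher at the fifth and the ninth. Of all probes, 8.84% were higher and 8.67% lower at the first hour, and 8.62% and 7.01% were higher at the fifth and the ninth.

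The question at each hour was which genes differed between corticosterone-treated and control animals. At the first hour, 10 members were higher and 9 lower (adjusted p under 0.05), against 8.84% and 8.67% of all probes. At the fifth hour 10 were higher and 10 lower, against 8.62% and 9.47%, and at the ninth 11 were higher and 5 lower, against 7.01% and 6.97%. Fewer cells of a type and less RNA per cell cannot be told apart in such samples. Among the 60 members with a mean intensity of 50 or more, 17 and 19 passed at the first and the fifth hour, against 20.1% of 32033 such probes at each, and 11 were higher and 5 lower at the ninth, against 7.05 and 6.91%. The members' median log2 fold change was 0.01, 0.02 and 0.05 at the 3 hours, and that of all probes was 0.00 at each. Apart from *Stx19*, log2 fold changes ran from -0.77 to 0.32, from -0.44 to 0.32 and from -0.48 to 0.34. The counts fell to 9 at the first hour without slide 2, 7 at the fifth without slide 3, and 6 and 7 at the ninth without slide 1 and without slide 3. A fit without a slide has 2 to 4 fewer arrays per hour.

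Calls recurred over the hours in some genes and not in others. *Snap47*, *Stx16*, *Stx7*, *Sv2a* and *Vamp1* were among the members higher at all 3 hours, and *Cplx2*, *Stx8*, *Stxbp5* and *Syt4* were lower at all 3. In all, 10 members passed in the same direction at every hour, 15.6% of them, against 5.91% of all probes. The dyes were not swapped at any hour, so a call that recurs does not tell dye and treatment apart either. 26 members (40.6%) passed at any hour, against 29.8% of all probes, and 38 passed at none. Of all probes, 43.4% had a mean intensity under 50, and the members were brighter than most. The shares over several hours were not computed among bright probes alone, so these differences are not read as a trait of the members. On 2 arrays of slide 3, at the first and at the fifth hour, some members stood apart from the other arrays, with *Vamp2* intensities of 19542 in the treated animal at the first hour, and of 10061 in the control and 11715 in the treated animal at the fifth. Without these 2 arrays, an alternative chosen after the values were seen, the counts were 18, 18 and 16.

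**Figure D1:**
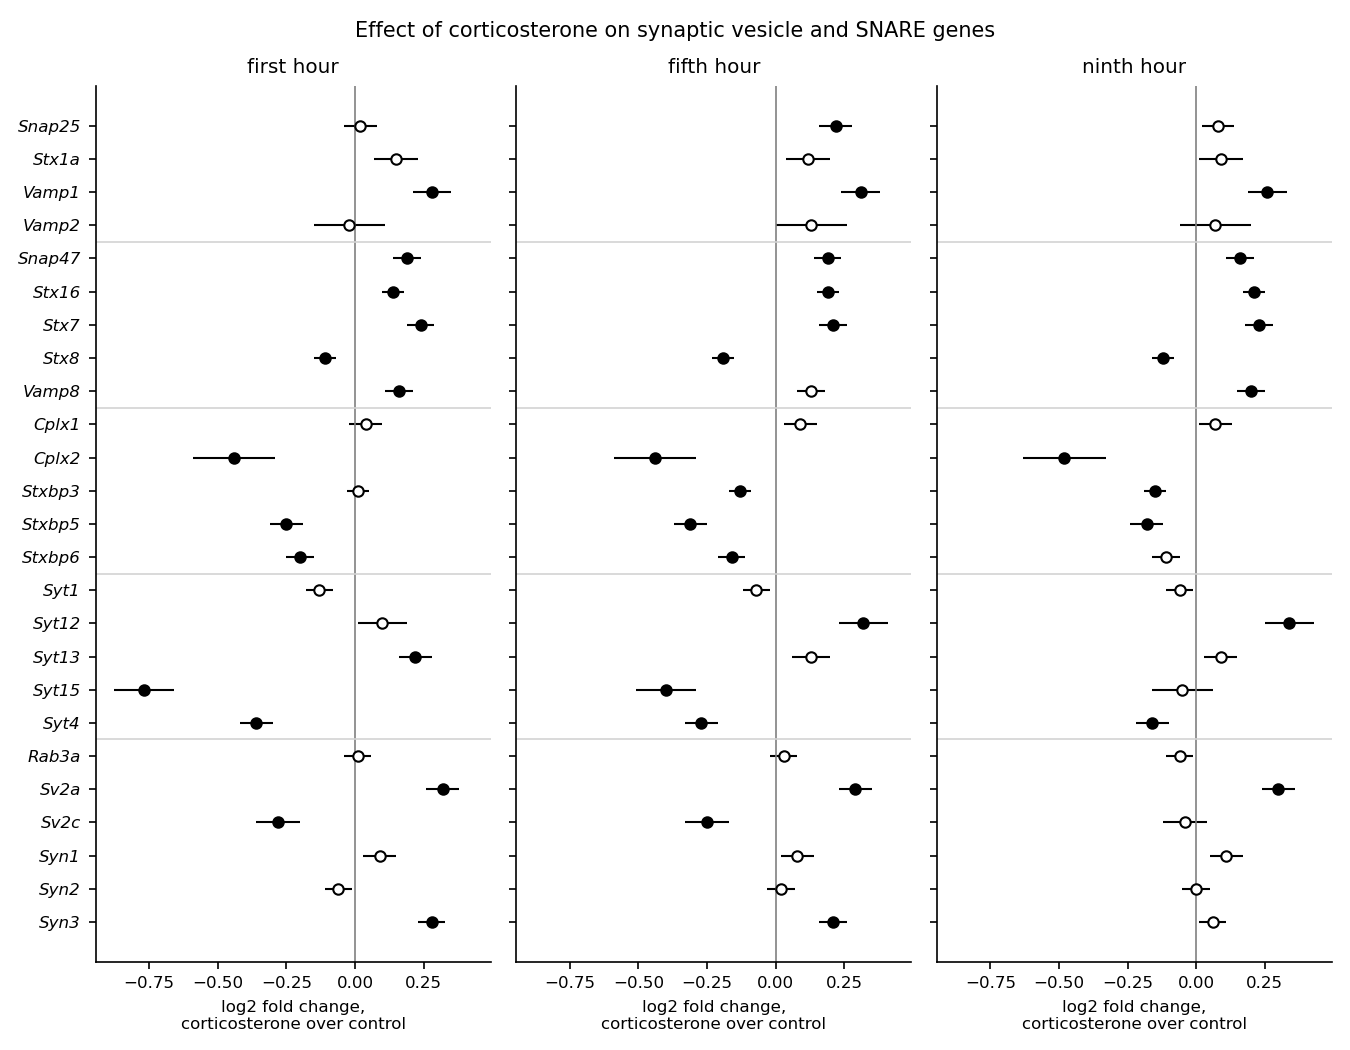
Log2 fold change of corticosterone-treated over control animals with its standard error (n = 8 per group, 7 for *Syt13* at the fifth hour) for genes named by rule, at the first, the fifth and the ninth hour, ordered by role. Filled points passed the test (adjusted p under 0.05), with *Sv2a* at 0.32, 0.29 and 0.30 and *Cplx2* at -0.44, -0.44 and -0.48.

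**Figure D2:**
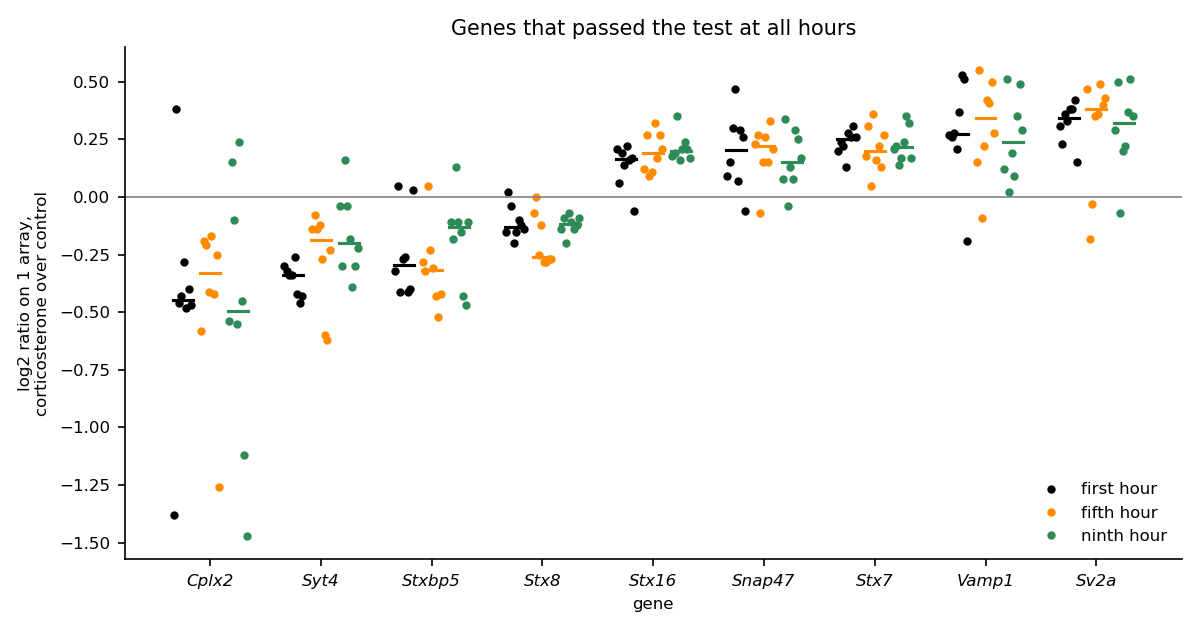
Log2 ratio of corticosterone over control on each array (points, 8 per hour, with the median as a bar) for members that passed the test at all 3 hours. *Stx7* was above 0 on all 8 arrays of each hour, and *Cplx2* ran from -1.38 to 0.38 at the first hour.

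As 10 members were called in the same direction at every hour, the members' promoters were searched for 5 short motifs. RefSeq promoter windows of 300 bases (250 before and 50 after the start, build GRCm38.p6) were found for 50 members, 66 windows in all, and each motif was sought on both strands of 32851 windows of all genes. The palindrome of the glucocorticoid response element, AGAACA and TGTTCT with 3 bases between them, lay in 0 windows of members and in 0.00913% of all windows. Its form with fewer fixed bases, GNACA and TGTNC with 3 bases between them, which every full palindrome also matches, lay in 1 member, *Stx17*, and in 0.475% of all windows. The cyclic AMP response element TGACGTCA lay in *Stxbp3* and *Syn1* (1.79% of all windows), the *Egr1* site GCGTGGGCG in 0 members (0.612%), and the E-box CACGTG in 7 of the 50 members (7.15% of all windows), which were *Cplx3*, *Stx6*, *Stxbp2*, *Sv2b*, *Syt14*, *Syt6* and *Vamp4*, none of them past the test at any hour by its brightest probe. The same held for 38 of the 64 members, and whether a motif went with the calls was not tested. Members were counted as genes, some with more than 1 window, and the percentages are of windows. The windows with the response elements are shown for *Stx17* (chr4:48124669-48124968, plus strand), *Stxbp3* (chr3:108840453-108840752, minus strand) and *Syn1* (chrX:20920869-20921168, minus strand), with the motif in capitals. *Sv2a* (chr3:96180977-96181276, plus strand) and *Stx8* (chr11:67966208-67966507, plus strand), higher and lower at every hour, are shown for comparison, and hold none of the 5 motifs. A match describes letters and was not tested as a binding site.
Stx17: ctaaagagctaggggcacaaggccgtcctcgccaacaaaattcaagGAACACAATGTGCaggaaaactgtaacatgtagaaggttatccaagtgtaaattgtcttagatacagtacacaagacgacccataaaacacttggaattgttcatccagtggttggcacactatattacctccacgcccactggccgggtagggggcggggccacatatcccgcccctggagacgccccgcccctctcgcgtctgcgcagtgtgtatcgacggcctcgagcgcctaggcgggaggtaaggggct
Stxbp3: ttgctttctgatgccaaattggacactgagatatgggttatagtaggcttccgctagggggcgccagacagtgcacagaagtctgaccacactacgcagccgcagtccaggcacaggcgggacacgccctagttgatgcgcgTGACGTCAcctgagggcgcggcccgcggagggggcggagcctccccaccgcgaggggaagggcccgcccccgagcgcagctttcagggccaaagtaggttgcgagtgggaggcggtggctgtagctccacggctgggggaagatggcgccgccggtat
Syn1: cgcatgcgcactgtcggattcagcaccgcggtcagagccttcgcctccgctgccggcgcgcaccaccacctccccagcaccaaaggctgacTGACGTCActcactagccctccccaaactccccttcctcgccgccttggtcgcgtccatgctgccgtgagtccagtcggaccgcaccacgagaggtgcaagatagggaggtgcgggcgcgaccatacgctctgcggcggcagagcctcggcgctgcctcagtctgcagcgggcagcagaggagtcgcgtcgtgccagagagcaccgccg
Sv2a: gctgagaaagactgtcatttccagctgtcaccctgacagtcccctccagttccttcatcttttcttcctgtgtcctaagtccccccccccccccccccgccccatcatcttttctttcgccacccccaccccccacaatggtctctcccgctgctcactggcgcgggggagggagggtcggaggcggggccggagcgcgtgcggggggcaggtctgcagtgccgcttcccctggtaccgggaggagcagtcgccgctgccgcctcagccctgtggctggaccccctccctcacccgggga
Stx8: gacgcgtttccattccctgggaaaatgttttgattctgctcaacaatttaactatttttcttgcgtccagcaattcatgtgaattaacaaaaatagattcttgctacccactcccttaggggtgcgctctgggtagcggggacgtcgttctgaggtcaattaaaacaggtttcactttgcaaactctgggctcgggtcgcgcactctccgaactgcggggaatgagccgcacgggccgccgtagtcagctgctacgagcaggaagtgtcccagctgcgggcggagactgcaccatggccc

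Among the SNAREs of the presynaptic membrane and vesicle, *Vamp1* was higher at all hours, *Snap25* at the fifth, and *Vamp2* and *Stx1a* passed at none. *Vamp1*, the synaptobrevin of fast-firing neurons and of part of the hippocampal terminals, had intensities of 2474, 2839 and 3097 (lowest, median and highest) in control animals at the first hour, and of 2515, 3548 and 3718 in corticosterone-treated animals. 7 of the 8 treated animals lay above every control animal. Its log2 fold change was 0.28 ± 0.07 (SE, n = 8 per group, adjusted p 0.00240), and it was higher on 7 of 8 arrays. At the fifth hour the control values were 2443, 2944 and 3557 and the treated values 3240.4, 3614 and 4731, a log2 fold change of 0.31 ± 0.07 (adjusted p 0.000969, 7 of 8 arrays), with 4 treated animals above every control animal. At the ninth hour they were 2603, 3157 and 3685 against 3450.3, 3691 and 4364, a log2 fold change of 0.26 ± 0.07 (adjusted p 0.00694, 8 of 8 arrays), and the groups again overlapped in part. Over the alternatives, the adjusted p of *Vamp1* ran from 7.73e-05 to 0.0597 at the first hour, highest without slide 2, and from 0.00193 to 0.0877 at the ninth, highest without slide 1. The fold changes in those fits without a slide were 0.28 and 0.30.

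*Snap25*, the plasma membrane SNARE that gives a pair of helices to the complex, had intensities of 30012, 37712 and 43687 in control animals at the fifth hour and of 40128, 43149.5 and 46145 in treated animals. 4 treated animals lay above every control animal, and all 8 arrays showed a higher treated value, with a log2 fold change of 0.22 ± 0.06 (n = 8 per group, adjusted p 0.00534). The fold change was 0.02 ± 0.06 (adjusted p 0.838) at the first hour and 0.08 ± 0.06 (adjusted p 0.399) at the ninth, and its change between hours did not pass the test. Without slide 3 the fifth-hour value was 0.16 (adjusted p 0.0520, the highest of a range from 0.000712), and a second *Snap25* probe gave 0.13, 0.15 and 0.12 and passed at no hour. *Vamp2*, the main synaptobrevin of forebrain terminals, had intensities of 28086, 30769 and 33428 in control and 30066, 32426 and 34869 in treated animals at the ninth hour, when the groups overlapped. Its log2 fold changes were -0.02, 0.13 and 0.07 (each ± 0.13, lowest adjusted p 0.534). *Stx1a*, the syntaxin partner of *Snap25*, had log2 fold changes of 0.15, 0.12 and 0.09 (each ± 0.08, adjusted p 0.159, 0.259 and 0.480).

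Among the 21 SNAREs of other membranes, 4 were higher and 2 lower at the first hour, 4 higher and 2 lower at the fifth, and 5 higher and 1 lower at the ninth. The lower ones of the first hour include *Stx19*, well above background on no array. Of all probes, 8.84% were higher and 8.67% lower at the first hour. These shares were 8.62% and 9.47% at the fifth hour, and 7.01% and 6.97% at the ninth. Whether a group of members differed from them was not tested. *Stx7*, a syntaxin of late endosomes, was higher at all hours. Control animals had intensities of 2363, 2909 and 3139 at the first hour and treated animals 2593, 3506 and 3768, a log2 fold change of 0.24 ± 0.05 (n = 8 per group, adjusted p 0.000104, 8 of 8 arrays). 7 treated animals lay above every control animal. Control values of 2680.2, 2947 and 3396 stood against 3149, 3424 and 3715 at the fifth hour, a log2 fold change of 0.21 ± 0.05 (adjusted p 0.000540, 8 of 8 arrays), with 5 treated animals above every control animal. Control values of 2587, 2943 and 3129 stood against 3244, 3385 and 3676 at the ninth hour, with 0.23 ± 0.05 (adjusted p 0.000305, 8 of 8 arrays). The groups did not overlap at the ninth hour, and *Stx7* passed under every alternative at all 3 hours.

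*Stx8*, another endosomal syntaxin and a partner of *Stx7* in the same complex, was lower at all hours. Its intensities were 1539, 1621 and 1868 in control and 1286, 1438 and 1562 in treated animals at the fifth hour, a log2 fold change of -0.19 ± 0.04 (n = 8 per group, adjusted p 9.98e-05, higher on 1 of 8 arrays). 5 treated animals lay below every control animal. The first-hour values were 1427, 1525 and 1586 against 1307, 1419 and 1455, with -0.11 ± 0.04 (adjusted p 0.0221, higher on 1 of 8 arrays), and at the ninth 1429, 1583 and 1678 against 1325, 1453 and 1528, with -0.12 ± 0.04 (adjusted p 0.0173, higher on 0 of 8). The groups overlapped at both hours, with 5 and 2 treated animals below every control animal. The first-hour call ended without slide 2 (adjusted p 0.168), without slide 3 (0.155), with quantile scaling of average intensities (0.0743) and with the authors' log2 ratios (0.0695), over a range from 0.000737 to 0.168. The fifth-hour call ended without slide 3 (0.0573, range from 5.12e-06), and the ninth-hour call without slide 1 (0.198), slide 2 (0.0667) or slide 3 (0.0645), with scaled average intensities (0.0616) and with the authors' log2 ratios (0.0611), over a range from 0.00166 to 0.198. Fold changes ran from -0.14 to -0.08, from -0.25 to -0.14 and from -0.14 to -0.09 at the 3 hours. A second *Stx8* probe was lower at the fifth hour (-0.15, adjusted p 0.0333) and had -0.01 and -0.10 at the other hours, where it did not pass. The other *Stx8* probes gave -0.04, 0.01 and 0.00, and -0.34, 0.03 and -0.18 (the last on a mean intensity of 16.4), and passed at no hour.

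*Stx16*, a syntaxin of the trans-Golgi network, was higher at all hours. Its ninth-hour intensities were 3899.9, 4050.3 and 4315 in control and 4367, 4659 and 5058 in treated animals, a log2 fold change of 0.21 ± 0.04 (n = 8 per group, adjusted p 5.01e-05, 8 of 8 arrays). The groups did not overlap at that hour. Control values of 4104, 4198 and 4395 stood against 3981, 4738 and 5013 at the first hour (0.14 ± 0.04, adjusted p 0.00628, 7 of 8 arrays), with 7 treated animals above every control animal and 1 below. Control values of 3924, 4256 and 4818 stood against 4494, 4879.7 and 5789.8 at the fifth hour (0.19 ± 0.04, adjusted p 0.000122, 8 of 8 arrays), with 5 treated animals above every control animal. The first-hour adjusted p ran from 0.000341 to 0.160 over the alternatives, highest without slide 2, with fold changes from 0.11 to 0.16. The other *Stx16* probe gave -0.02, -0.05 and -0.07 and passed at no hour.

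*Snap47*, a relative of *Snap25* found on membranes inside the cell, had intensities of 20786, 24367 and 25855 in control and 23835, 27841 and 29783 in treated animals at the first hour, and was higher by a log2 fold change of 0.19 ± 0.05 (n = 8 per group, adjusted p 0.00117, 7 of 8 arrays). 7 treated animals lay above every control animal. Control values of 21913, 23959 and 28406 stood against 26328, 27403 and 32717 at the fifth hour, with 0.19 ± 0.05 (adjusted p 0.00148, 7 of 8 arrays), and at the ninth 22866, 25959.6 and 27367 against 26580.0, 28436 and 30233, with 0.16 ± 0.05 (adjusted p 0.00893, 7 of 8 arrays). 2 and 6 treated animals lay above every control animal at those hours. The adjusted p ran from 0.000106 to 0.0774 at the first hour (highest without slide 2), from 0.000830 to 0.0618 at the fifth (without slide 3), and from 0.00411 to 0.0891 at the ninth, where the call also ended without slide 3 (0.0703) beside slide 1 (0.0891). Fold changes ran from 0.15 to 0.23, from 0.17 to 0.24 and from 0.14 to 0.20. 2 other *Snap47* probes gave 0.16, 0.15 and 0.07, and 0.06, -0.05 and -0.24, and did not pass.

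*Vamp8*, a SNARE of late endosomes and autophagosome fusion, had intensities of 395, 470.1 and 488 in control and 429, 529 and 581 in treated animals at the ninth hour, for a log2 fold change of 0.20 ± 0.05 (n = 8 per group, adjusted p 0.00436, 8 of 8 arrays). 7 treated animals lay above every control animal. Control values of 401, 430.4 and 476 stood against 443, 483 and 580.1 at the first hour, with 0.16 ± 0.05 (adjusted p 0.0149, 8 of 8 arrays), and at the fifth the fold change was 0.13 ± 0.05 (adjusted p 0.0576, 7 of 8 arrays). 6 treated animals lay above every control animal at the first hour. The first-hour call ended without slide 1 (0.0754) or slide 3 (0.213), from a lowest value of 0.00331, and the ninth-hour call without slide 1 (0.168, range from 0.00153). Over the alternatives, fold changes ran from 0.12 to 0.20 at the first hour and from 0.18 to 0.21 at the ninth. The adjusted p at the fifth hour ran from 0.0182, with the authors' log2 ratios, to 0.403, and was also under 0.05 on log ratios (0.0316), on the scanner software's processed signals (0.0453), with scaled average intensities (0.0388) and without slide 2 (0.0242). Further genes, named here after their values were seen, passed at 1 hour each. *Snap23*, the widely expressed relative of *Snap25*, was higher at the fifth hour (0.28 ± 0.09, adjusted p 0.0216, 7 of 8 arrays), *Snap29*, which works in autophagosome fusion, was lower at the fifth (-0.16 ± 0.06, adjusted p 0.0431, higher on 1 of 8), and *Stx17*, the autophagosome syntaxin, was higher at the ninth (0.17 ± 0.05, adjusted p 0.0174, 8 of 8). The other *Stx17* probe was lower at the ninth hour (-0.21, adjusted p 0.0477), so that the probes of this gene disagreed. *Stx19* passed at the first hour (adjusted p 0.00192) on a mean intensity of 15.9, and was well above background on no array.

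Of the 10 SNARE partners, 3 were lower at the first hour, 4 at the fifth and 3 at the ninth. The shares of all probes that were lower were 8.67%, 9.47% and 6.97%. *Cplx2*, the complexin of most excitatory forebrain terminals, was lower at all hours and varied widely between animals. Control animals of the first hour had 15456, 31569 and 56111 and treated animals 20085, 22792 and 30656, so that the treated range lay within the control range. The log2 fold change was -0.44 ± 0.15 (n = 8 per group, adjusted p 0.0336, higher on 1 of 8 arrays). At the fifth hour 32185, 37603 and 49386 stood against 15576, 29199.9 and 37210.1 (-0.44 ± 0.15, adjusted p 0.0347, higher on 0 of 8), and at the ninth 28357, 32039 and 50411 against 18150.4, 25099 and 33541 (-0.48 ± 0.15, adjusted p 0.0247, higher on 2 of 8). 5 treated animals lay below every control animal at each of these hours. The ninth-hour means were -0.26, -0.10 and -1.29 on slides 1, 2 and 3, and without slide 3 the fold change was -0.21 (adjusted p 0.468, range 0.0232 to 0.468). The first-hour call ended without slide 1 (0.0653), slide 2 (0.158), slide 3 (0.121) or the 2 arrays that stood apart (0.0620), over a range from 0.0288 to 0.158. First-hour fold changes stayed between -0.47 and -0.42. The fifth-hour call ended without slide 2 (0.0791), slide 3 (0.318) or the 2 arrays (0.0539) and with processed signals (0.0538), over a range from 0.0308 to 0.318. Fifth-hour fold changes ran from -0.54 to -0.31, the latter without slide 3. A second *Cplx2* probe was lower at the first and ninth hour (-0.37, adjusted p 5.28e-05, and -0.30, adjusted p 0.00131) and had -0.16 (adjusted p 0.0869) at the fifth, while the third gave 0.10, 0.20 and 0.16 and did not pass. *Cplx1*, its relative, had log2 fold changes of 0.04, 0.09 and 0.07 (each ± 0.06, adjusted p 0.701, 0.264 and 0.425).

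*Stxbp5* (tomosyn), which binds SNAREs and restrains release, had intensities of 1705, 2028 and 2431 in control and 1488, 1686 and 1764 in treated animals at the fifth hour, a log2 fold change of -0.31 ± 0.06 (n = 8 per group, adjusted p 0.000197, higher on 1 of 8 arrays). 5 treated animals lay below every control animal. Control values of 1745, 1948 and 2027 stood against 1342, 1561 and 2045 at the first hour (-0.25 ± 0.06, adjusted p 0.00223, higher on 2 of 8), and at the ninth 1744, 1916 and 2155 against 1552, 1679 and 2054 (-0.18 ± 0.06, adjusted p 0.0325, higher on 1 of 8). 6 treated animals lay below and 1 above every control animal at the first hour, and 5 lay below at the ninth. The first-hour adjusted p ran from 0.000365 to 0.0916, highest without slide 2, with fold changes from -0.29 to -0.21. At the ninth hour, with values from -0.29 to -0.14, it ran from 0.0197 to 0.222 and was over 0.05 without slide 1 (0.0503), slide 2 (0.222) or slide 3 (0.109), with scaled average intensities (0.0873) and with the authors' log2 ratios (0.111). The other *Stxbp5* probes gave 0.05, 0.05 and 0.00, and -0.02, -0.04 and -0.01, and did not pass.

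*Stxbp6* (amisyn), a syntaxin-binding protein that can take the place of synaptobrevin in the complex, had intensities of 6884, 7679.8 and 8553 in control and 6182, 6665 and 7165 in treated animals at the first hour. 6 treated animals lay below every control animal, and the log2 fold change was -0.20 ± 0.05 (n = 8 per group, adjusted p 0.00200, higher on 0 of 8 arrays). It was -0.16 ± 0.05 (adjusted p 0.0128, higher on 2 of 8) at the fifth hour and -0.11 ± 0.05 (adjusted p 0.105) at the ninth. The call ended at the first hour without slide 2 (0.0642) or slide 3 (0.0536), from a lowest value of 0.00102, and at the fifth without slide 1 (0.192) or slide 3 (0.0594), from 0.00848, and the ninth-hour value passed without slide 2 (0.0370, the lowest of its range). Fold changes ran from -0.24 to -0.17 at the first hour and from -0.20 to -0.11 at the fifth. *Stxbp3*, the partner of plasma membrane syntaxin 4, had intensities of 1125, 1220.1 and 1278 in control and 1059, 1090.2 and 1149 in treated animals at the ninth hour. 6 treated animals lay below every control animal. Its log2 fold change was 0.01 ± 0.04 (adjusted p 0.870) at the first hour, -0.13 ± 0.04 (adjusted p 0.0181, higher on 1 of 8 arrays) at the fifth and -0.15 ± 0.04 (adjusted p 0.00832, higher on 0 of 8) at the ninth, and the change from first to ninth was -0.16 ± 0.06 (adjusted p 0.294). The fifth-hour call of *Stxbp3* ended without slide 2 (0.203) or slide 3 (0.191), with scaled average intensities (0.0549) and with processed signals (0.0515), from a lowest value of 0.0125, and the ninth-hour call without slide 1 (0.100), slide 2 (0.0533) or slide 3 (0.0519), from 0.00430. Its fold changes ran from -0.16 to -0.10 at the fifth hour and from -0.16 to -0.12 at the ninth.

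Of the 17 synaptotagmins, 2 were higher and 3 lower at the first hour, 1 higher and 3 lower at the fifth, and 2 higher and 1 lower at the ninth. The shares of all probes, higher and lower, were 8.84% and 8.67%, 8.62% and 9.47%, and 7.01% and 6.97%. *Syt1*, the calcium sensor of fast release, had intensities of 35930.2, 40209 and 51263 in control and 35328, 37031 and 42065 in treated animals at the first hour, and the groups overlapped. Its log2 fold changes were -0.13, -0.07 and -0.06 (each ± 0.05), with an adjusted p of 0.0516 at the first hour and 0.413 at the ninth. The adjusted p of *Syt1* at the first hour was under 0.05 with slide as a block (0.0457), among probes of intensity 50 or more (0.0452), without slide 2 (0.0165) and without the 2 arrays (0.0432), over a range from 0.0165 to 0.355. *Syt4*, a synaptotagmin of dense-core vesicles whose transcription follows neuronal activity, was lower at all hours. Its first-hour intensities were 2906, 3043 and 3350.4 in control and 2185, 2361 and 2647 in treated animals, and the groups did not overlap. The log2 fold change was -0.36 ± 0.06 (n = 8 per group, adjusted p 2.46e-06, higher on 0 of 8 arrays). Control values of 2609.6, 2923 and 3333 stood against 2077, 2421 and 2821 at the fifth hour (-0.27 ± 0.06, adjusted p 0.000205, higher on 0 of 8), with 6 treated animals below every control animal. Control values of 2554, 2736 and 3455 stood against 2191, 2627 and 2863 at the ninth hour (-0.16 ± 0.06, adjusted p 0.0296, higher on 1 of 8), with 3 treated animals below every control animal. Between the first and ninth hours the effect changed by 0.19 ± 0.08, which did not pass the test (adjusted p 0.415). Without slide 3 the fifth-hour value was -0.15 (adjusted p 0.134, range 0.000142 to 0.134). The ninth-hour adjusted p was over 0.05 without slide 2 (0.233) or slide 3 (0.135), with scaled average intensities (0.0546), processed signals (0.0734), log ratios (0.0514) and the authors' log2 ratios (0.0753), over a range from 0.0259 to 0.233, with values from -0.27 to -0.12.

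*Syt15*, a synaptotagmin that does not bind calcium, had a low signal (mean intensity 42.9), well above background on 8 control and 5 treated arrays at the first hour, 8 and 7 at the fifth, and 7 and 8 at the ninth. Its intensities were 39.9, 47.2 and 58.8 in control and 18.4, 27.8 and 36.8 in treated animals at the first hour, and the groups did not overlap. The log2 fold change was -0.77 ± 0.11 (n = 8 per group, adjusted p 9.03e-06, higher on 0 of 8 arrays), with means of -0.18, -1.07 and -0.86 on the 3 slides. Control values of 37.5, 49.5 and 68.4 stood against 27.9, 38.5 and 49.2 at the fifth hour (-0.40 ± 0.11, adjusted p 0.00901, higher on 0 of 8), with 4 treated animals below every control animal. Control values of 33.9, 47.1 and 59.2 stood against 34.5, 48.0 and 52.2 at the ninth hour (-0.05 ± 0.11, adjusted p 0.791, higher on 4 of 8), and the groups overlapped throughout. Over the alternatives the first-hour value of *Syt15* ran from -1.25, on processed signals, to -0.31, with the authors' log2 ratios, and passed under all 12 that tested it (adjusted p 3.82e-07 to 0.0199). The fifth-hour value ran from -0.68 to -0.18 under the same settings, and its adjusted p was 0.181 without slide 3 (range from 0.00293). The other *Syt15* probe gave 0.26, 0.00 and -0.13 and passed at no hour.

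**Figure D3:**
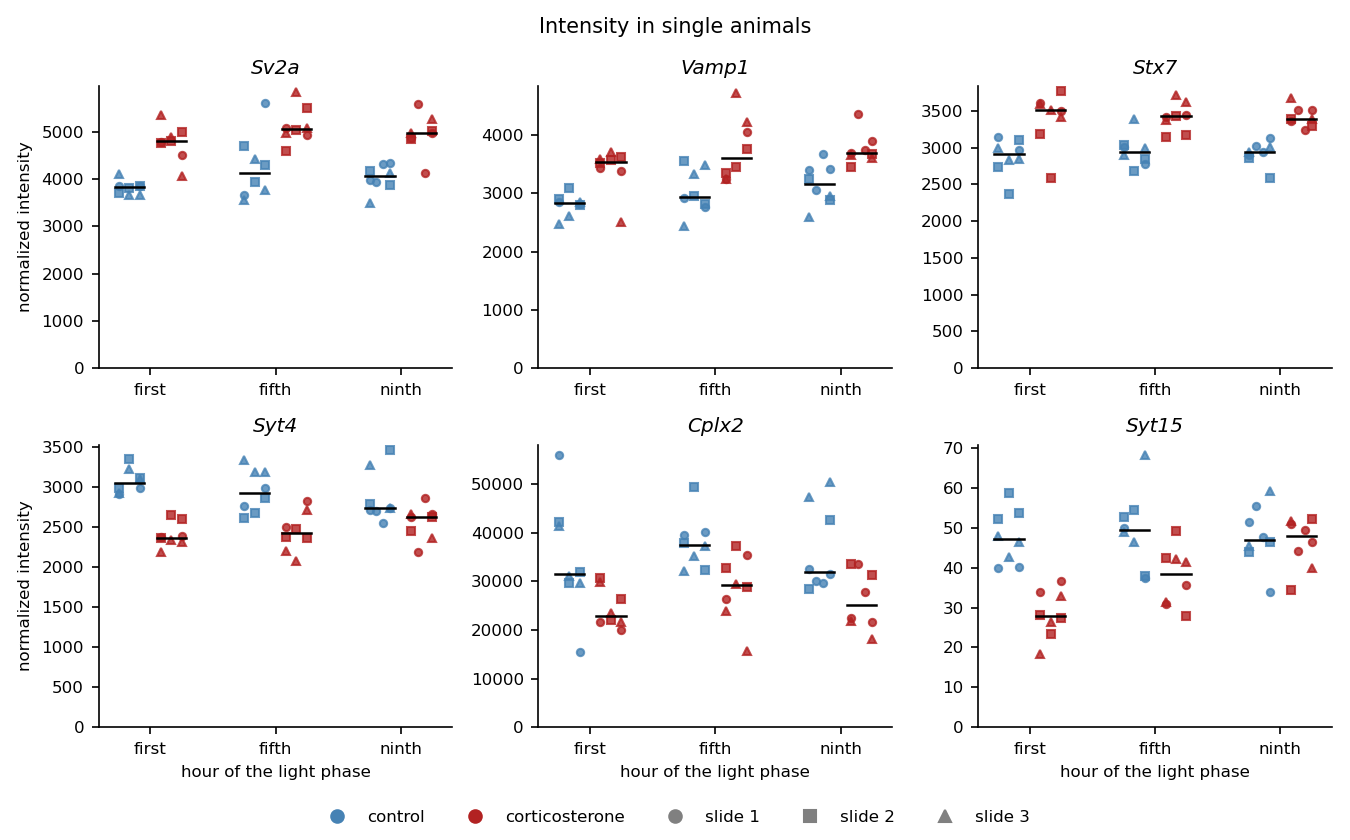
Normalized intensity of *Sv2a*, *Vamp1*, *Stx7*, *Syt4*, *Cplx2* and *Syt15* in single animals (points, 8 per group, with the median as a bar) by hour of the light phase, with treatment as color and slide as marker shape. Control and treated animals did not overlap for *Stx7* at the ninth hour and for *Syt4* and *Syt15* at the first, and the control animals of *Cplx2* ran from 15456 to 56111 at the first hour.

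*Syt12*, another synaptotagmin without calcium binding, also had a low signal (mean intensity 72.8). Its intensities were 55.9, 66.2 and 87.0 in control and 65.3, 87.5 and 119 in treated animals at the ninth hour, for a log2 fold change of 0.34 ± 0.09 (n = 8 per group, adjusted p 0.00559, 8 of 8 arrays). 5 treated animals lay above every control animal. The median at the fifth hour was 62.9 in control and 76.4 in treated animals (0.32 ± 0.09, adjusted p 0.00837, 8 of 8 arrays), with 6 treated animals above every control animal, and at the first the fold change was 0.10 ± 0.09 (adjusted p 0.513). The fifth-hour call of *Syt12* ended without slide 3 (0.117, range from 0.00463) and the ninth-hour call without slide 1 (0.0760) or slide 3 (0.0642, range from 0.00283). The fold changes in these fits were 0.34 at the fifth hour, and 0.33 and 0.34 at the ninth. Over all alternatives, values ran from 0.18 to 0.37 and from 0.21 to 0.36. *Syt13*, of the same kind, had intensities of 16001, 17452 and 20327 in control and 17435, 20780.3 and 24637 in treated animals at the first hour, with 5 treated animals above every control animal. Its log2 fold change was 0.22 ± 0.06 (adjusted p 0.00850, 7 of 8 arrays) at the first hour, 0.13 ± 0.07 (adjusted p 0.147, 4 of 7 arrays, since 1 spot was flagged as an outlier and left out) at the fifth and 0.09 ± 0.06 (adjusted p 0.325) at the ninth. The first-hour call of *Syt13* ended without slide 2 (0.100) or the 2 arrays (0.0576), from a lowest value of 0.00676, and the fifth-hour value passed without slide 3 (0.22, adjusted p 0.0425, range 0.0425 to 0.902). Its first-hour fold changes ran from 0.16 to 0.23 over the alternatives. *Syt3* and *Syt5*, named after their values were seen, passed at 2 hours each. *Syt3* was higher at the first and ninth hour (0.23 ± 0.07, adjusted p 0.0117, and 0.21 ± 0.07, adjusted p 0.0250, 7 of 8 arrays each), and *Syt5* lower at the first and the fifth (-0.12, adjusted p 0.0455, and -0.12, adjusted p 0.0393).

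Of the 11 vesicle proteins, 2 were higher and 1 lower at the first and at the fifth hour, and 2 higher and 0 lower at the ninth. Among all probes, the shares higher and lower were 8.84% and 8.67%, 8.62% and 9.47%, and 7.01% and 6.97% at the 3 hours. *Sv2a*, a glycoprotein of all synaptic vesicles and the binding site of the antiepileptic drug levetiracetam, was higher at all hours. Its intensities were 3667, 3827 and 4108 in control and 4059, 4795 and 5347 in treated animals at the first hour, a log2 fold change of 0.32 ± 0.06 (n = 8 per group, adjusted p 6.56e-05, 8 of 8 arrays). 7 treated animals lay above every control animal. Control values of 3552, 4117 and 5607 stood against 4584, 5053 and 5847 at the fifth hour (0.29 ± 0.06, adjusted p 0.000310, 6 of 8 arrays), and 1 treated animal lay above every control animal. Control values of 3493, 4057 and 4328 stood against 4121, 4971 and 5575 at the ninth hour (0.30 ± 0.06, adjusted p 0.000298, 7 of 8 arrays), with 7 treated animals above every control animal. Without slide 3 the fifth-hour value was 0.19 (adjusted p 0.0934, range 0.000130 to 0.0934).

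*Sv2c*, a relative of *Sv2a*, had intensities of 533, 622 and 657 in control and 456, 496 and 627 in treated animals at the first hour, a log2 fold change of -0.28 ± 0.08 (n = 8 per group, adjusted p 0.0105, higher on 1 of 8 arrays). 6 treated animals lay below every control animal. At the fifth hour 510.2, 593 and 775 stood against 360.0, 542 and 651 (-0.25 ± 0.08, adjusted p 0.0211, higher on 3 of 8), with slide means of -0.75, 0.03 and -0.21, and without slide 1 the value was -0.09 (adjusted p 0.527, range 0.00379 to 0.527). This was the only called value of a gene named by rule whose direction differed between slides, 1 of 46. The fifth-hour call also ended without slide 3 (0.0974) and with the authors' log2 ratios (0.0543), over values from -0.42 to -0.09, and the first-hour call without slide 2 (0.0958) or slide 3 (0.0746), from a lowest value of 0.00329. First-hour values ran from -0.33 to -0.24. At the ninth hour *Sv2c* had -0.04 ± 0.08 (adjusted p 0.786), a change from the first hour of 0.24 ± 0.12 (adjusted p 0.637). *Syn3*, the synapsin known from developing neurons and neurogenesis, had intensities of 623, 720.2 and 804 in control and 734, 872 and 962 in treated animals at the first hour, a log2 fold change of 0.28 ± 0.05 (adjusted p 2.78e-05, 8 of 8 arrays). 6 treated animals lay above every control animal. Control values of 581, 692 and 742 stood against 708, 779 and 832 at the fifth hour (0.21 ± 0.05, adjusted p 0.00172, 8 of 8 arrays), and at the ninth 564, 634 and 687 against 583, 661 and 699 (0.06 ± 0.05, adjusted p 0.469). 7 treated animals lay above every control animal at the fifth hour, and the groups overlapped at the ninth. The fifth-hour adjusted p of *Syn3* ran from 0.00101 to 0.0849, highest without slide 2, with fold changes from 0.15 to 0.25. Its other probe gave 0.17, 0.17 and -0.04 and did not pass.

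The other vesicle proteins of the core machinery passed at no hour. *Syn1* and *Syn2*, synapsins that tether vesicles to the cytoskeleton, had log2 fold changes of 0.09, 0.08 and 0.11 (each ± 0.06, adjusted p 0.214, 0.273 and 0.152) and of -0.06, 0.02 and 0.00 (each ± 0.05, adjusted p 0.437, 0.840 and 0.983). With the authors' log2 ratios *Syn2* passed at the fifth hour (0.11, adjusted p 0.0349, range 0.0349 to 0.955). *Rab3a*, the vesicle GTPase of the terminal, had 0.01, 0.03 and -0.06 (each ± 0.05, adjusted p 0.935, 0.718 and 0.425). *Rab3d*, named after its value was seen, was higher at the ninth hour (0.22 ± 0.07, adjusted p 0.0241, 8 of 8 arrays).

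Second probes, which read other stretches of a transcript, gave a mixed picture for the genes that passed. Their brightest probes had 14 other probes at the first hour, 10 in the same direction (2 past the test) and 4 in the opposite one (0 past it). Of the 15 at the fifth hour 7 lay in the same direction (1 past the test) and of the 13 at the ninth 7 (1 past the test), and *Stx17* at the ninth hour was the only gene with an opposite probe past it. Where the brightest probe did not pass, 23 other probes were read at the first hour, and 4 passed in its direction and 1 in the opposite one. These were 3 and 2 of 22 at the fifth hour and 3 and 1 of 24 at the ninth. *Rab3c* had a lower second probe at all hours (-0.18, -0.23 and -0.25, adjusted p 0.0287, 0.00561 and 0.00373) and *Syt6* at the first and the fifth (-0.49 and -0.47, adjusted p 0.000442 and 0.00100), beside brightest probes at 0.00, 0.06 and 0.09 for *Rab3c* and -0.05 and -0.09 for *Syt6*. That of *Syt10* was lower at the fifth and the ninth (-0.31 and -0.37, adjusted p 0.0315 and 0.0118), beside a brightest probe at 0.09 and -0.07. A dimmer probe of *Snap23* was lower at the first hour (-0.21, adjusted p 0.0428), opposite to the sign of its brightest probe (0.12), and 1 of *Stx3* was higher at the first (0.33, adjusted p 0.00691). Low-signal probes (mean intensity 22.8 and 21.5) of *Syt2* at all hours (0.53, 0.45 and 0.50, adjusted p 0.0165, 0.0355 and 0.0182) and of *Stx2* at the fifth and the ninth (0.72 and 0.53, adjusted p 0.00150 and 0.0273) were also higher. The genes in these sentences were chosen after their values were seen.

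The change of the corticosterone effect between hours, in which a constant dye difference cancels, was asked for every member. *Syt15* was the 1 member that passed, from the first to the ninth hour, with a change of 0.72 ± 0.16 (n = 8 per group, adjusted p 0.0249), against 0.253% of all probes that moved up and 0.574% that moved down. The change of *Syt15* passed under 7 of 12 alternatives, with values from 0.29 to 1.26 and adjusted p from 0.00114 to 0.623. It ended without slide 1 (0.174), slide 2 (0.623) or slide 3 (0.207), on log ratios (0.0679) and with the authors' log2 ratios (0.29, adjusted p 0.0685), and the probe was not among those of intensity 50 or more, where the count was 0. The other *Syt15* probe changed by -0.39 ± 0.19 (adjusted p 0.573). From the first to the fifth hour limma gave 0 members (0.00353% of all probes up, 0.0353% down), with 4 at an unadjusted p under 0.05, and from the fifth to the ninth 0 members (0.0106% up, 0.0724% down), with 3. From the first to the ninth hour 8 members had an unadjusted p under 0.05, among them *Syn3* (-0.22 ± 0.07, adjusted p 0.129), *Stxbp3* and *Syt4*. A gene that passed at 1 hour and not at another was not shown to differ between them by these tests, apart from *Syt15*. A second probe of *Stx3*, a plasma membrane syntaxin named after its value was seen, changed by -0.50 from the first to the ninth hour (adjusted p 0.0274), while its brightest probe gave 0.23, 0.12 and 0.20 and passed at no hour.

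**Figure D4:**
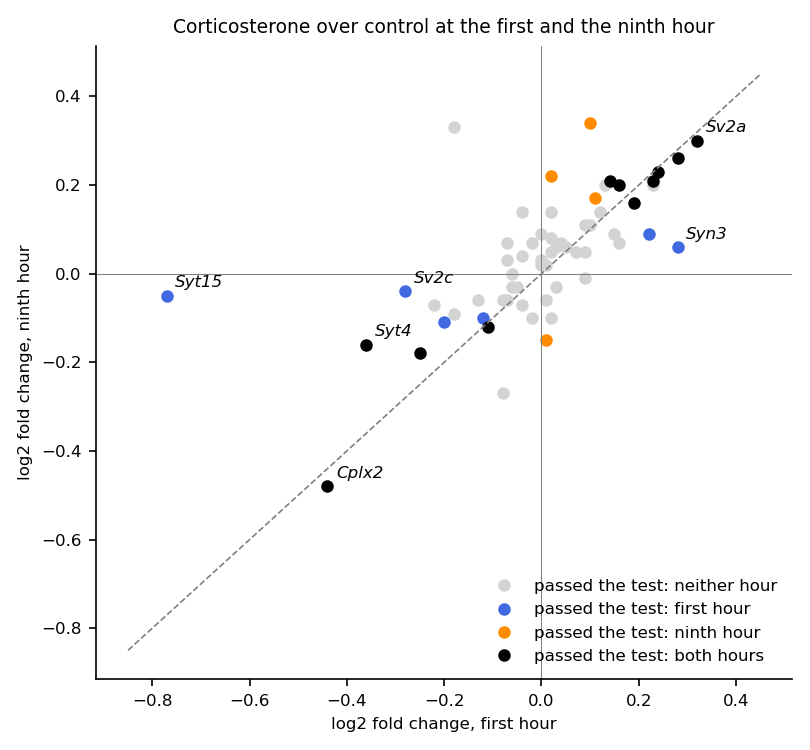
Log2 fold change of corticosterone-treated over control animals at the first hour (x axis) and at the ninth hour (y axis) for members that stood well above background on at least 1 array, with color for the hours at which a member passed the test and a dashed line for equal values. *Syt15* lies farthest from the line, at -0.77 and -0.05, and *Cplx2* lies near it, at -0.44 and -0.48.

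Control animals were compared between hours for the daily course without added hormone. These comparisons share animals. From the first to the ninth hour limma gave 0 members past the test (0.288% of all probes up, 0.249% down), with 7 at an unadjusted p under 0.05. From the first to the fifth hour there were 0 (0.00353% up, 0.00177% down), with 7, and from the fifth to the ninth 0 (0.0124% up, 0.0212% down), with 6. *Syn3* in control animals differed by -0.17 ± 0.06 between the first and the ninth hour (adjusted p 0.174).

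Other genes of vesicle release, recycling and filling were read from lists. Their counts stand beside the shares of all probes that passed the test. These were 8.84% higher and 8.67% lower at the first hour, 8.62% and 9.47% at the fifth, and 7.01% and 6.97% at the ninth. Whether a list differed from these shares was not tested. Of 22 active zone genes, which build the site of fusion, 8 were higher and 2 lower at the first hour, 9 and 3 at the fifth, and 6 and 0 at the ninth, with medians of 0.10, 0.10 and 0.06. The scaffold gene *Ppfia4* had log2 fold changes of 0.38, 0.40 and 0.40 (adjusted p 1.24e-08, 6.89e-09 and 1.58e-08, 8 of 8 arrays each), *Bsn* (bassoon) 0.35, 0.38 and 0.32, and *Rims1*, which binds *Rab3a*, 0.17, 0.25 and 0.25. Of 21 genes of vesicle endocytosis, 7 were higher and 1 lower, 8 and 1, and 7 and 2 at the 3 hours (medians 0.06, 0.13 and 0.13), with the clathrin adaptor subunit *Ap2s1* at 0.41, 0.40 and 0.44, the membrane-bending *Amph* at 0.31, 0.32 and 0.31 and the scaffold *Itsn1* at 0.43, 0.54 and 0.44. Of 21 genes of the vesicle membrane and its filling, 3 were higher and 0 lower, 6 and 1, and 5 and 0 (medians 0.11, 0.09 and 0.08). *Syngr3* (synaptogyrin) had 0.20, 0.25 and 0.18, and the GABA transporter *Slc32a1* 0.15 (adjusted p 0.0536), 0.24 and 0.20. The 4 genes that take SNARE complexes apart had 1 higher at each hour (*Napg*, 0.17, 0.19 and 0.18), 1 lower at the fifth (*Nsf*, -0.13, adjusted p 0.0244) and medians of -0.03, -0.03 and 0.02. The 12 genes of the core release machinery, all of them members, had 2 higher and 1 lower, 3 and 1, and 2 and 1 (medians 0.01, 0.09 and 0.07). No gene of these lists passed in a change between hours (limma, 1, 1, 1 and 0 in the order above at an unadjusted p under 0.05 from the first to the ninth hour), and *Sncg*, named after its value was seen, was higher in control animals at the ninth than at the first hour (0.30 ± 0.08, adjusted p 0.0485).

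The treatment itself was read from 5 genes that glucocorticoids induce, *Fkbp5*, *Sgk1*, *Tsc22d3*, *Per1* and *Zbtb16*. All 5 were higher at the first hour, 3 were higher at the fifth, and 3 were lower at the ninth, with medians of 0.60, 0.20 and -0.28. *Tsc22d3*, a direct target of the glucocorticoid receptor, had 0.93, 0.20 and -0.58, and *Fkbp5*, a brake on that receptor, had 0.60, 0.31 and -0.28. The effect on all 5 was lower at the ninth hour than at the first (adjusted p under 0.05 for the change).

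Markers of other cells also moved with the treatment, and their part in the members' results was not tested. Of all probes, 8.84% were higher and 8.67% lower at the first hour. These shares were 8.62% and 9.47% at the fifth hour, and 7.01% and 6.97% at the ninth. Whether a set of markers differed from them was not tested. Of 6 endothelial markers, 1 was higher and 4 lower at the first hour, 2 and 2 at the fifth and 2 and 1 at the ninth, with *Flt1* the brightest (log2 fold change -0.61, -0.47 and -0.37). Their summed intensity ran from 7169.8 to 12876 over all animals, with medians in control and treated animals of 10543 and 8048 at the first hour, 10745 and 9690.4 at the fifth and 9811 and 9487 at the ninth. *Cldn5* and *Kdr*, named after their values were seen, passed in the change between the first and ninth hours (0.60 ± 0.10 and 0.57 ± 0.11), and *Cldn5* was lower in control animals at the ninth than at the first hour (-0.34 ± 0.08). Of 6 astrocyte markers, 1 was higher and 1 lower at the first hour and 1 and 2 later, with *Aldh1l1* at 0.57, 0.51 and 0.41 and *Aqp4* at -0.76, -0.86 and -0.71, and the sum (28254 to 37335, *Slc1a3* brightest) had medians of 30447 and 33439.9, 31489 and 32509, and 31046 and 30878. Of 6 microglial markers, 0 were higher and 3 lower, 1 and 2, and 0 and 1, and the sum (33262 to 49139.7, *Itgam* brightest) had medians of 37577 and 39927, 38266 and 42319.8, and 39332 and 41633. All of these markers stood well above background on every array. Of 6 choroid plexus markers 5 did so, limma passed 0 at every hour (0, 0 and 0 at an unadjusted p under 0.05), and the sum (977 to 2905, *Kl* brightest) had medians of 1403 and 1289.6, 1455 and 1401, and 1164 and 1207.

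Across slides, 45 of the 46 called values of genes named by rule had the same direction on all 3 slides. With slide as a block, the counts of members that passed were 20, 21 and 16 at the 3 hours. The members' median log2 ratio on 1 slide at 1 hour lay between -0.01 and 0.04.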

How the data were processed

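RNA of hippocampus from 48 mice was measured on 24 arrays, 1 control (Cy3) and 1 corticosterone-treated (Cy5) animal on each. Spot intensity values are the scanner software's signals as deposited, and the authors also gave a table of log2 ratios. As the authors did, intensities were background corrected (normexp), normalized within arrays (loess) and between arrays (quantile) with limma, with an offset of 0 for fold changes and 50 for p values. Spots that the scanner software flagged as outliers in either dye, 80 to 276 per array, were then set to missing. The study's methods do not describe this step. A separate channel fit with 6 groups and an intraspot correlation of 0.279 gave each comparison, and p values were adjusted over all 56605 probes by the Benjamini-Hochberg method. limma's function for this fit takes no missing values, so the same fit was written anew for them and tested on simulated data. Recomputed log2 ratios with the offset of 50 differed from the authors' log2 ratios by a median absolute difference of 0.0101, or of 0.00121 without the quantile step.

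Genes were named through the RefSeq table of GRCm38.p6, which matched 34566 probes. Members and lists were chosen with earlier results of these data known. Genes named by rule were 12 of the core release machinery, up to 14 other members of mean intensity 50 or more by smallest adjusted p, and any member past the test in a change between hours or between control groups. From each other list, at most 3 genes with the smallest adjusted p were described. Some genes and 1 list of cell markers are not reported here.

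Alternatives were an offset of 0 for p values, no background correction, median centring, quantile scaling of average intensities, the processed signals, probes of intensity 50 or more, a moderated test on log ratios, slide as a block, each slide left out, all probes of a gene, the authors' log2 ratios and, chosen after seeing the data, 2 arrays left out. R 4.3.3 with the packages limma (3.58.1), statmod (1.5.0), data.table (1.17.8) and jsonlite (2.0.0), and Python 3.11.15 with pandas (2.3.3), numpy (2.4.6) and matplotlib (3.10.9) were used. The number of arrays limits the precision.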

Additional observations from a re-analysis of the deposited data

Results flagged for a closer look

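In 18 of 162 groups of 7 or 8 animals, over 11 genes, the lowest or the highest animal stood far from the others by Dixon's ratio of its gap to the group's range. Chance gives about 1 in 20 groups when groups are independent. Here they were not, since the genes were read in the same animals. A single treated animal of the first hour gave the outliers of *Cplx1*, *Stx1a*, *Vamp1*, *Vamp2* and *Vamp8*. At the fifth hour, those of *Vamp2*, *Syn2* and *Stx8* lay on a single array.

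At the first hour, the lowest corticosterone-treated animal stood apart for *Cplx1* (17584), *Stx1a* (1089), *Stx7* (2593), *Vamp1* (2515) and *Vamp2* (19542), and the highest for *Vamp8* (580.1) and *Syn2* (54865). Among control animals of that hour, the highest stood apart for *Stx16* (4395), *Stx1a* (1614) and *Sv2a* (4108), and the lowest for *Sv2c* (533).

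At the fifth hour, *Vamp2* had a low control animal (10061) and a low corticosterone-treated animal (11715) on the same array, *Syn2* had a low treated animal (39208) and *Stx8* a high control animal (1868). At the ninth hour, the lowest animal stood apart for *Stx7* in control animals (2587), and for *Sv2a* (4121) and *Vamp8* (429) in treated animals.

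The corticosterone effect on *Syt15* differed between the first and ninth hours by 0.72 on the log2 scale in its own test (adjusted p 0.0249). The probe had a low signal (mean intensity 42.9), and values ran from 0.29 to 1.26 over the alternatives. The call ended without slide 1, slide 2 or slide 3, on log ratios and with the authors' log2 ratios. The other *Syt15* probe changed by -0.39.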

How the results depend on the processing

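The number of members past the test was within 1.5 times its reported value under the alternatives other than these. At the first hour 9 passed without slide 2 (19 reported, all probes 4557 against 9916). At the fifth hour 7 passed without slide 3 (20 reported, all probes 4131 against 10239). At the ninth hour 6 passed without slide 1 and 7 without slide 3 (16 reported, all probes 1868 and 4966 against 7914). A fit without a slide has fewer arrays by construction. The 1 member that changed from the first to the ninth hour became 0 without slide 1, slide 2 or slide 3, on log ratios, with the authors' log2 ratios and among probes of intensity 50 or more, where its probe is not tested, and the cause was not tested for the rest.

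With the authors' log2 ratios 14 were higher and 8 lower at the fifth hour (10 and 10 reported), and 12 and 3 at the ninth (11 and 5 reported). Without slide 3 these were 6 and 1, and 7 and 0, and 9 and 4 at the first hour (10 and 9 reported). Without slide 1, 10 were higher and 6 lower at the fifth hour. At the ninth hour 9 and 2 passed without slide 2, and 11 and 3 with quantile scaling of average intensities.

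Of 608 values of the 47 named results past the test, 536 stayed past it in the same direction and 72 did not pass, 12, 17 and 24 of them without slide 1, 2 and 3. No call turned its direction. Of 454 values of the 35 other results, 13 passed and 27 changed sign without passing. An offset of 0, no background correction and median centring moved none of the 82 across the threshold. Signal over background limits what can be said of *Stx19*, *Syt15*, *Stx11* and *Syt8*, whose mean intensity was under 50.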
